A study of Mus musculus with 6 samples.

Results

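The nuclear receptor gene Ppara and 7 genes of fatty acid oxidation and lipid handling, Cpt1a, Cpt2, Acadm, Ehhadh, Pdk4, Angptl4 and Plin2, were examined in organoids of the mouse small intestine that had been exposed to MMK-1, a peptide agonist of FPR2. The 8 genes were taken by symbol from the 21397 genes of the expression table, by a fixed list of names. Organoids are cultures grown from intestinal crypts that hold the cell types of the epithelium. They were derived from Fpr2f/f mice, in which the gene is flanked by loxP sites, and no Cre is given for any of the samples, so both groups carried the same floxed genotype. The Control group received 0.1% DMSO as vehicle and the MMK-1 group received the peptide MMK-1, both until day 5, with 3 libraries in each group. The treatment protocol and the methods both give 1 µM of MMK-1, whereas the label for the treated samples reads 1 mM. Organoids of 3 mice made up a sample, and the mice were 8 to 12 weeks old. Whether the groups or replicates shared mice is not given in the sources used here.

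PPAR-alpha, the protein of Ppara, is a nuclear receptor that binds fatty acids and their derivatives, pairs with a retinoid X receptor and activates genes whose products burn fat. Fatty acids enter mitochondria through the carnitine shuttle (Cpt1a, Cpt2) and are shortened there by enzymes such as Acadm, while the longest chains are first shortened in peroxisomes, where Ehhadh acts. Pdk4 restrains the use of glucose, Angptl4 is secreted and restrains lipoprotein lipase, and Plin2 coats lipid droplets. In the small intestine these genes are best known from the absorptive enterocytes of the villus, which take up dietary fat.

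Recovered library totals lay between 35512739 and 37537463 fragments. The first principal component of all genes tested held 92.4% of the variance and separated the groups, and the second, with 4.48%, separated MMK-1 replicate 3 from the other libraries. The epithelial marker Epcam was high in both groups (392 ± 1.79 FPKM in control and 391 ± 20.9 FPKM in MMK-1-treated organoids, mean ± SD, n = 3). Epithelial markers as a list were less even. Among the 10 listed, which include Epcam, 4 rose, 4 fell and 2 were not called. Their summed level went from 4086–4122 to 2933–3167 FPKM. Of 20 enterocyte markers, 19 fell and 1 rose, and their summed level went from 7964–8052 to 3471–3576 FPKM. All 9 stem cell markers tested and all 6 Paneth cell markers rose, the stem cell list from a sum of 65.3–66.4 to 345–359 FPKM. Summed immune markers were at 6.43–7.23 FPKM in control and 2.46–3.66 FPKM in MMK-1-treated organoids, with Itgax at 0 throughout, and summed stromal markers at 5.87–6.45 and 3.76–5.46 FPKM. Of 4 adipocyte markers Fabp4 was at 0 in all libraries, and their sum, 22.6–23.9 FPKM in control and 16.0–17.5 FPKM with MMK-1, came from genes of which 3 are also in the lipid droplet list used here. In bulk RNA, fewer cells of a type and less RNA per cell cannot be told apart, and the part that these marker changes had in any result given here was not tested.

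The promoters of Ppara, Ehhadh and Acadm, the 3 members called lower among those that passed the filter on low levels, and that of Plin2, which held the closest match to a PPAR element, are shown because PPAR-alpha binds a direct repeat of AGGTCA spaced by 1 base. Each is the 250 bases before the start of the gene in RefSeq (GRCm38.p6), printed 5′ to 3′ on the strand of the gene, with capitals on matches to AGGTCA on either strand or to AGGTCANAGGTCA with at most 2 mismatches. Ppara is at chr15:85735526-85735775 (plus strand), Ehhadh at chr16:21787835-21788084, Acadm at chr3:153944644-153944893 and Plin2 at chr4:86670060-86670309 (all minus strand). RefSeq and GENCODE place some starts differently. The windows of Ppara and of Cpt1a (chr19:3323051-3323300, not printed here) lie inside the GENCODE spans given with the values of these genes.
Ppara: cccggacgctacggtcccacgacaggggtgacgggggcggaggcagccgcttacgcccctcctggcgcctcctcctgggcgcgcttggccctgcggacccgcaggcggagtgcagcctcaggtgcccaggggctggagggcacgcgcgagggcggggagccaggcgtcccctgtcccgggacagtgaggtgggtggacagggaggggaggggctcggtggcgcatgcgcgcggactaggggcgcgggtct
Ehhadh: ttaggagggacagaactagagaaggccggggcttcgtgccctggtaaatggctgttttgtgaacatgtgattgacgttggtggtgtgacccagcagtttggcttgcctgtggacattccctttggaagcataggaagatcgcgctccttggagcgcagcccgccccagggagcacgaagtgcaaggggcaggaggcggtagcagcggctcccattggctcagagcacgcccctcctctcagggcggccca
Acadm: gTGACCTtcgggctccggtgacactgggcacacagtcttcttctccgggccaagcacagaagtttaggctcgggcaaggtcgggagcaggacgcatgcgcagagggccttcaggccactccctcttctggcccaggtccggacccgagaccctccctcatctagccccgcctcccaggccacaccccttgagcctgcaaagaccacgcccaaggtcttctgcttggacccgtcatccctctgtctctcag
Plin2: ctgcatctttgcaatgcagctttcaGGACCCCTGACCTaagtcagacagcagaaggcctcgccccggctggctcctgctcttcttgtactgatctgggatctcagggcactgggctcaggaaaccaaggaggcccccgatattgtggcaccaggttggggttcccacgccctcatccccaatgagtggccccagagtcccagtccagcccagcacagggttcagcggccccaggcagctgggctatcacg
Of the 8 members, 7 were matched in the promoter table, and Angptl4 was not. The AGGTCA motif was present in 3 of the 7 windows, 94 bases before the start in Cpt1a, 249 in Acadm and 218 in Plin2, and in 14% of 32851 mouse promoter windows of the same length. The longer motif was found in 1 of the 7 windows, in Plin2 at 225 bases before the start with 2 mismatches and overlapping its AGGTCA match, and in 3.24% of all windows. The Ppara, Ehhadh, Cpt2 and Pdk4 windows held neither. A match or its absence describes these letters and was not tested as a binding site.

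MMK-1-treated organoids had less Ppara, Ehhadh, Acadm and Pdk4 RNA than control organoids, slightly more Angptl4 RNA, and levels of Cpt1a, Cpt2 and Plin2 that overlapped between the groups. The call for Angptl4 was lost with other scalings of the libraries, and Pdk4 rested on few fragments and was below the filter of the test. Levels are given as FPKM, fragments scaled to the length of the gene and to the total of the library, so that they can be compared between genes. Fold changes and p-values come from limma on log2(FPKM + 1). The 10551 genes whose mean reached 1 FPKM were tested, with Benjamini-Hochberg adjustment over all of them. On this scale the change of a gene with a low level is understated. At an adjusted p of at most 0.05, 3 of the 7 members tested were lower and 1 was higher, while 0 members passed a fold change of at least 2 in limma or in voom on the recovered fragments. At any fold change, 5 of the 7 passed 0.05 before adjustment of p, the 4 called and Cpt2. Among all genes tested 73.2% passed the adjusted p, 24.7% lower and 48.5% higher, and 3.65% were lower and 3.39% higher by at least 2-fold, so a call by adjusted p alone was common in this comparison. Groups that did not overlap were as common, in 26.3% of genes lower and 50.5% higher.

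**Figure D1:**
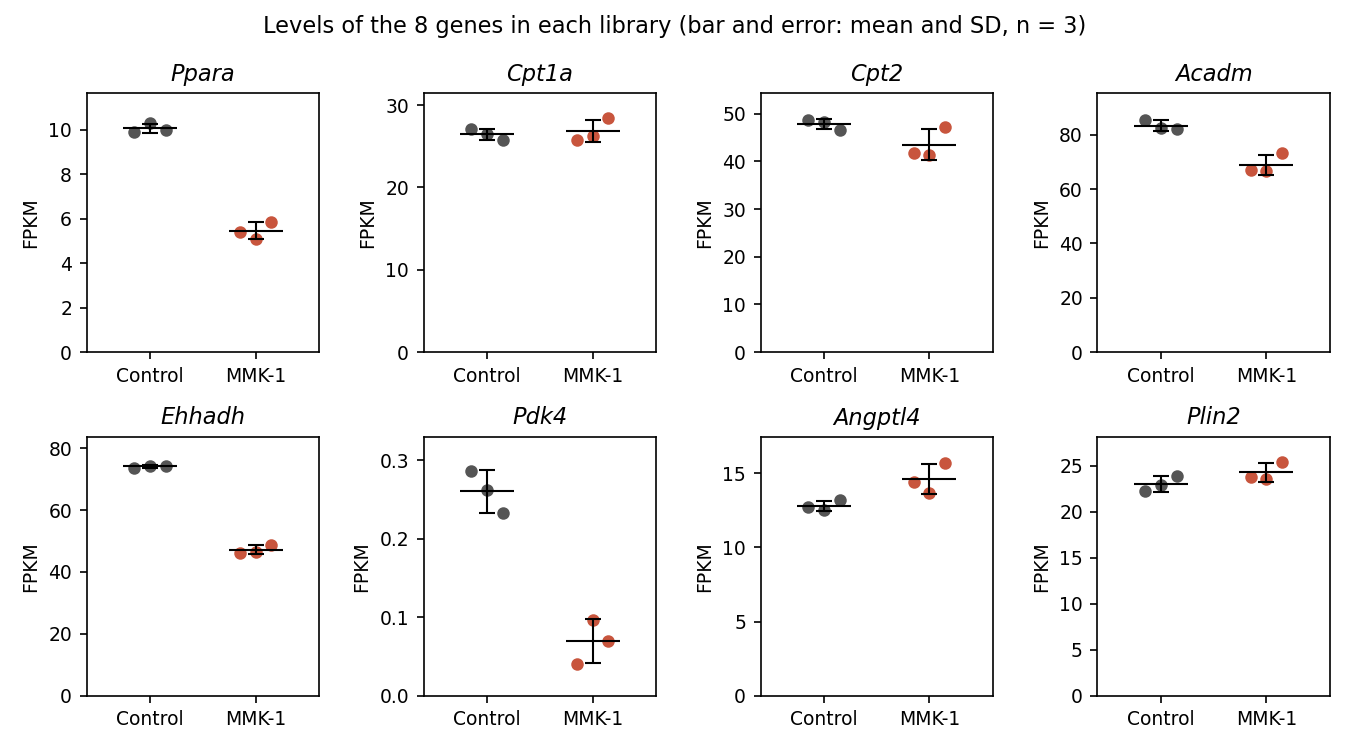
FPKM of the 8 genes in each library (y axes start at 0, on a scale of their own for each gene), grouped on the x axis as Control and MMK-1. Points are libraries, and the bar with its error is the mean and SD of 3 libraries. The groups are apart for Ppara (10 against 5.45 FPKM), Ehhadh, Acadm, Pdk4 and Angptl4 and overlap for Cpt1a, Cpt2 and Plin2.

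The receptor gene Ppara (NCBI gene 19013, chr15:85734983-85802819, plus strand) was at 9.91, 10.3 and 9.97 FPKM in the control libraries and at 5.41, 5.08 and 5.84 FPKM in the MMK-1 libraries. All 3 MMK-1 libraries were below every control library. The means were 10 ± 0.19 and 5.45 ± 0.383 FPKM (SD, n = 3), a 1.85-fold lower level with MMK-1 (log2 fold change −0.78, SE 0.0546, limma adjusted p = 3.04e-06). Its level stood above that of 52.8% of the genes tested in control and of 31.4% in MMK-1-treated organoids, and 5.27% of genes tested had a more negative fold change. Between 1905 and 4020 fragments lay behind the value of each library. The exact two-sided permutation test of this single gene gave p = 0.1, the smallest that 3 against 3 libraries allow.

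The other receptors of the family, Pparg and Ppard, which respond to fatty acids too, differed less between groups. Pparg was at 10.2–11.3 FPKM in control and 9.04–9.64 FPKM in MMK-1-treated organoids (log2 fold change −0.17, adjusted p = 0.0183 by limma), and Ppard was at 7.85–8.02 and 7.6–8.15 FPKM (0.0051, adjusted p = 0.926). Control levels of Ppara overlapped those of Pparg and lay above those of Ppard, and with MMK-1 Ppara was the lowest of the 3. The ratio of Ppara to Ppard within a library, which does not depend on how libraries are scaled against each other, was 1.24–1.31 in control and 0.626–0.717 with MMK-1. That of Ppara to Pparg was 0.88–0.986 and 0.527–0.646. Over the 10 ratios of this kind that were compared, the exact permutation p of these 2 was 0.1 each (0.111 after Benjamini-Hochberg adjustment), which is again the smallest the design allows. The pairs were chosen after their values were seen, and the adjustment does not cover that choice.

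Among 11 receptors, partners and cofactors besides Ppara, 6 rose, 2 fell and 3 were not called, with a median log2 fold change of 0.13, the same as the 0.13 of all genes. The count of rises was unstable, at 3 without Control replicate 3, without MMK-1 replicate 2, with a filter of 5 FPKM and with upper-quartile scaling. With median-of-ratios scaling 3 rose and 4 fell, and without Control replicate 3 only 1 fell. Lpin1, a phosphatidate phosphatase that also acts as a coactivator of PPAR-alpha, rose from 1.34 ± 0.0935 to 4.48 ± 0.0521 FPKM (log2 fold change 1.23, adjusted p = 2.03e-07 by limma). Ncoa1, a coactivator of nuclear receptors, rose from 6.61 to 10.1 FPKM (0.54). The partner receptor Rxra fell from 26.8 ± 0.23 to 23.5 ± 1.04 FPKM (−0.18, adjusted p = 0.00542).

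Of the carnitine shuttle, Cpt1a (NCBI gene 12894, chr19:3322334-3385733, plus strand) makes the acylcarnitine that enters the mitochondrion, the rate-limiting step of the pathway. It was at 27.1, 26.5 and 25.7 FPKM in control and at 25.8, 26.3 and 28.4 FPKM in MMK-1-treated organoids, so the groups overlapped. The log2 fold change was 0.02 with an SE of 0.0483 (adjusted p = 0.727 by limma), and the difference was within the spread of the libraries. Its paralogs Cpt1b and Cpt1c, the muscle and brain forms, had at most 16 and 23 fragments in any library, so Cpt1a supplied nearly all of the Cpt1 RNA.

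Cpt2 (NCBI gene 12896, chr4:107903981-107923610, minus strand), which turns acylcarnitine back into acyl-CoA inside the mitochondrion, was at 48.6, 48.3 and 46.7 FPKM in control and at 41.8, 41.4 and 47.3 FPKM in MMK-1-treated organoids. MMK-1 replicates 1 and 2 were below all control libraries and replicate 3 lay among them. The log2 fold change of −0.14 (SE 0.0559, limma adjusted p = 0.052) missed the threshold, and without MMK-1 replicate 3 it was −0.2 with an adjusted p of 0.000452. That library was the highest of the MMK-1 libraries for all 7 members tested, as it was for 60.7% of all genes tested. Within libraries the ratio of Cpt2 to Cpt1a was 1.79–1.82 in control and 1.58–1.67 with MMK-1, without overlap (exact permutation p = 0.1, adjusted 0.111, for a pair chosen after its values were seen).

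The other tested genes listed with the carnitine shuttle moved more than Cpt1a or Cpt2. Of the 5 tested, 4 fell and 1 rose, with a median log2 fold change of −0.38 against 0.13 for all genes. Without the filter on low levels 2 rose and the median was −0.15. Slc22a5, the carnitine importer of the plasma membrane, fell from 13.2 ± 0.613 to 7.9 ± 0.303 FPKM (−0.67, limma adjusted p = 4.85e-06), and Crat, a carnitine acetyltransferase, fell from 13.7 ± 0.241 to 9.46 ± 0.709 FPKM (−0.5, 5.59e-05). The gene that rose was Acaca, from 5.68 ± 0.146 to 10 ± 0.232 FPKM (0.72, 1.53e-06); its product makes malonyl-CoA, the inhibitor of the Cpt1 enzymes.

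Acadm (NCBI gene 11364, chr3:153922357-153944632, minus strand), the medium-chain acyl-CoA dehydrogenase, was the most abundant of the 8 in both groups. It was at 85.5, 82.6 and 82.0 FPKM in control and at 66.9, 66.7 and 73.1 FPKM in MMK-1-treated organoids. All MMK-1 libraries were below all control libraries, and the mean was lower by 17.4% (83.4 ± 1.9 against 68.9 ± 3.65 FPKM, SD, n = 3). The log2 fold change was −0.27 (SE 0.047, adjusted p = 0.000747 by limma). The ratio of Acadm to Cpt1a within libraries went from 3.12–3.19 to 2.54–2.59.

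The 14 other genes of mitochondrial beta-oxidation that were tested were all called, 10 lower and 4 higher (2 higher with median-of-ratios scaling), with a median log2 fold change of −0.31 and a summed level of 1608–1627 FPKM in control and 1264–1359.5 FPKM with MMK-1. Decr1, which removes double bonds of unsaturated fatty acids, fell from 31.6 ± 0.99 to 19.0 ± 0.0785 FPKM (−0.7, limma adjusted p = 9.79e-07). Hadh, the short-chain hydroxyacyl-CoA dehydrogenase, fell from 568 to 394 FPKM (−0.53, 1.1e-05). The dehydrogenases for the longest and the shortest chains went the other way from Acadm. Acadvl rose from 81.1 ± 3.0 to 100.2 ± 4.58 FPKM (0.3, 0.000434) and Acads from 34.8 ± 1.01 to 41.3 ± 1.41 FPKM (0.24, 0.00094), and Acadvl was above Acadm in all MMK-1 libraries, after a control level that overlapped it.

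Ehhadh (NCBI gene 74147, chr16:21761287-21787807, minus strand), a bifunctional enzyme of peroxisomal beta-oxidation, was at 73.6, 74.4 and 74.4 FPKM in control and at 46.2, 46.6 and 48.8 FPKM in MMK-1-treated organoids. The libraries of each group lay close together and the groups were far apart. The mean was lower by 36.3% (74.1 ± 0.453 against 47.2 ± 1.41 FPKM), with a log2 fold change of −0.64 (SE 0.0387, limma adjusted p = 1.24e-06), and 7.15% of genes tested had a more negative fold change. Ehhadh stood clear of Cpt2 in the order of control levels and overlapped it with MMK-1. Its ratio to Cpt1a within libraries went from 2.72–2.9 to 1.72–1.79.

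The peroxisomal list moved with Ehhadh. Of 13 other genes tested, 11 fell, 0 rose and 2 were not called in limma (1 rose in TPM and with the replicate block), with a median log2 fold change of −0.59, and the summed level of the list was 987–994 FPKM in control and 616–635 FPKM with MMK-1. Acaa1a, a peroxisomal thiolase, was at 93.7 FPKM in control and 46.4 FPKM with MMK-1 (−1.0), while its close copy Acaa1b was at 37.3 and 40.9 FPKM (0.13, adjusted p = 0.0676). Because reads of such copies may have been divided between them, both values are uncertain.

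**Figure D2:**
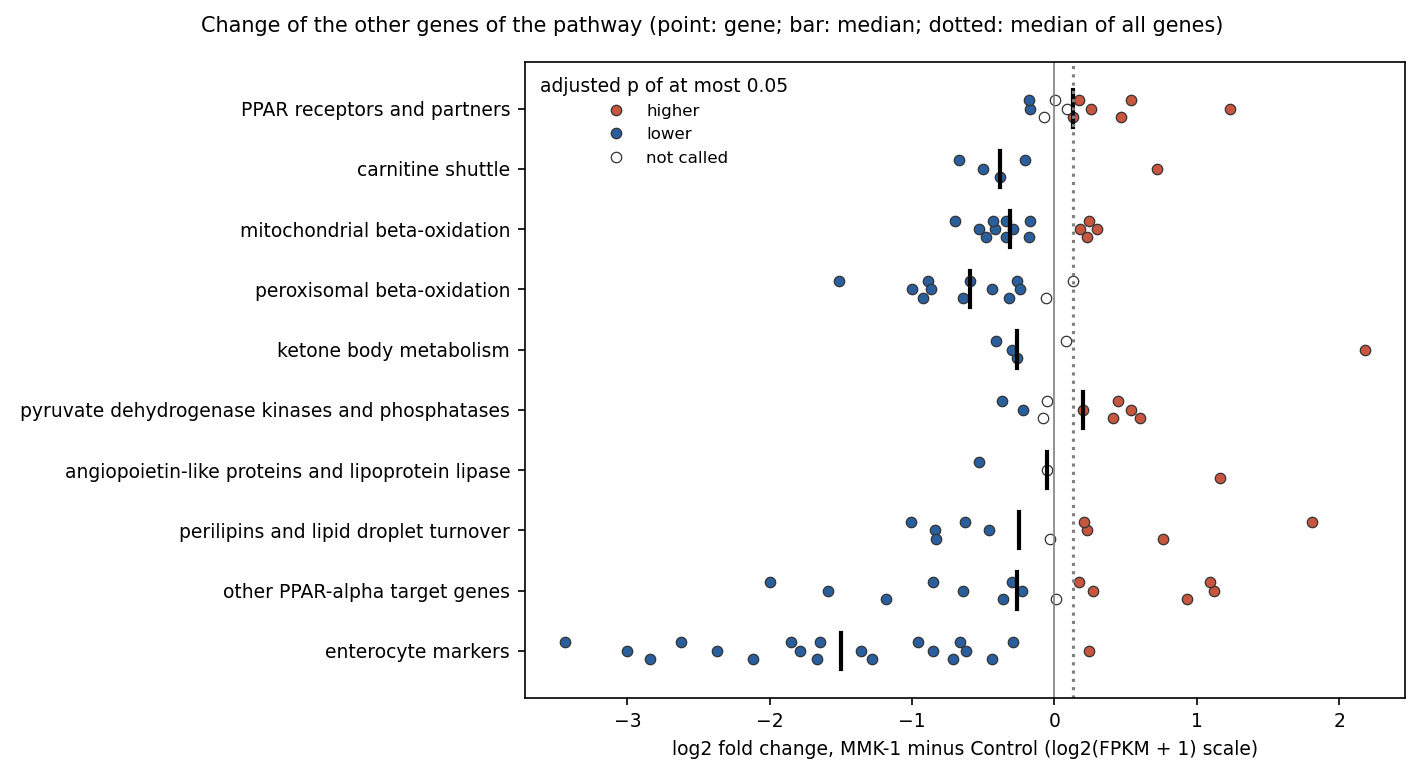
Log2 fold changes (x axis, log2(FPKM + 1) scale) of the tested genes in 9 lists of the pathway, the 8 members left out, and of enterocyte markers. Points are genes coloured by their call at an adjusted p of at most 0.05, bars are list medians and the dotted line is the median of all genes, 0.13; the peroxisomal list has no gene called higher and a median of −0.59.

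Among genes of ketone body metabolism, for which fatty acid oxidation supplies the acetyl-CoA, 3 of 5 fell, 1 rose and 1 was not called, with a median log2 fold change of −0.26. The summed level of the list nevertheless rose, from 126–129 FPKM in control to 153–166 FPKM with MMK-1. Oxct1, which lets cells use ketone bodies, fell from 20.0 ± 0.257 to 16.1 ± 0.59 FPKM (−0.3, limma adjusted p = 0.000282).

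Pdk4 (NCBI gene 27273, chr6:5483351-5496309, minus strand), a kinase that switches off pyruvate dehydrogenase, was barely expressed and was below the filter of the test. In control its fragments numbered 37, 34 and 30 (0.286, 0.262 and 0.232 FPKM), against 5, 12 and 9 with MMK-1 (0.0408, 0.0967 and 0.0702 FPKM). Every MMK-1 library was below every control library, and the mean FPKM was 3.76-fold lower, on 101 against 26 fragments in all. Tested without the filter and with a pseudocount of 0.1, a setting added after its values were seen, Pdk4 had a log2 fold change of −1.1 (SE 0.157, adjusted p = 0.00173 over 20676 genes by limma), where 15.3% of genes were called lower. With the pseudocount of 1 it was at −0.24 (adjusted p = 0.000782 by limma), where 15.2% were called lower. The exact permutation p was 0.1.

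The other kinases of the family carried nearly all of its RNA, led by Pdk1 and Pdk2. Pdk1 rose from 30.8 ± 0.677 to 45.3 ± 0.777 FPKM (0.54, limma adjusted p = 3.42e-06), Pdk2 fell from 23.1 ± 0.595 to 19.7 ± 1.54 FPKM (−0.22, 0.00781), and Pdk3 was at 2.44 and 2.32 FPKM (−0.053, 0.423). In the list of pyruvate dehydrogenase kinases, phosphatases and subunits, 5 of 9 other genes rose and 2 fell, with a median of 0.2, and with median-of-ratios scaling 4 rose and 4 fell. Pdhb, a subunit of the dehydrogenase itself, rose from 64.9 to 98.8 FPKM (0.6), and Mpc1, a subunit of the mitochondrial pyruvate carrier, fell from 31.9 to 24.5 FPKM (−0.37).

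Angptl4 (NCBI gene 57875, chr17:33773750-33781830, minus strand) was at 12.7, 12.5 and 13.2 FPKM in control and at 14.4, 13.7 and 15.7 FPKM in MMK-1-treated organoids. All MMK-1 libraries were above all control libraries, by 1.14-fold in the mean (12.8 ± 0.383 against 14.6 ± 1.0 FPKM). The log2 fold change was 0.18 (SE 0.0555, adjusted p = 0.0179 by limma), close to the 0.13 of all genes, and the call was lost when libraries were scaled to a common upper quartile (0.1, adjusted p = 0.107) or by the median of ratios (0.039, 0.495). It was also lost without Control replicate 1 (0.17, 0.0554) and without Control replicate 2 (0.16, 0.0668). Of its relatives that bear on lipoprotein lipase, Angptl8 fell from 23.3 ± 0.195 to 15.9 ± 0.53 FPKM (−0.53, 6.66e-06), so that its ratio to Angptl4 went from 1.77–1.85 to 1.02–1.14. Angptl6, another member of the family, rose from 0.654 ± 0.129 to 2.72 ± 0.483 FPKM (1.16, 1.19e-05), on 47 to 70 fragments per control library and 196 to 290 with MMK-1. Lpl itself, the lipase, had at most 3 fragments in any library, so the organoids held Angptl4 RNA with almost no RNA of its target.

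Plin2 (NCBI gene 11520, chr4:86648386-86670060, minus strand) was at 22.2, 22.9 and 23.9 FPKM in control and at 23.8, 23.6 and 25.4 FPKM in MMK-1-treated organoids. The groups overlapped, and the log2 fold change of 0.075 (SE 0.0476, limma adjusted p = 0.183) was within the spread of the libraries. Plin3, the other coat protein with a substantial level, fell from 138 ± 1.12 to 100.2 ± 4.65 FPKM (−0.46, 1.63e-05), and its ratio to Plin2 went from 5.75–6.28 to 4.09–4.16.

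Of 10 other genes of lipid droplets and their turnover, 5 fell and 4 rose, with a median of −0.25 and a sum of 606–629 FPKM in control and 392–425 FPKM with MMK-1. Lipe, the hormone-sensitive lipase, fell from 15.4 ± 0.389 to 7.16 ± 0.23 FPKM (−1.01, limma adjusted p = 2.15e-07), and Cideb, which acts in loading lipoproteins with fat, from 148 ± 6.9 to 82.4 ± 5.6 FPKM (−0.84, 2.64e-06). With median-of-ratios scaling 6 fell and 2 rose (median −0.38), and without the filter on low levels 7 rose and the median was 0.0064. Inhibitors of the droplet lipase ATGL rose. G0s2 had 5, 3 and 14 fragments in control and 96, 99 and 106 with MMK-1 (0.232 ± 0.186 against 3.29 ± 0.0907 FPKM, log2 fold change 1.81, 7.65e-07), and Hilpda rose from 4.4 ± 0.254 to 8.19 ± 0.812 FPKM (0.76, 1.89e-05). Pnpla2, the gene of ATGL itself, rose too, from 21.1 ± 0.568 to 24.7 ± 0.815 FPKM (0.21, limma adjusted p = 0.00207).

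**Figure D3:**
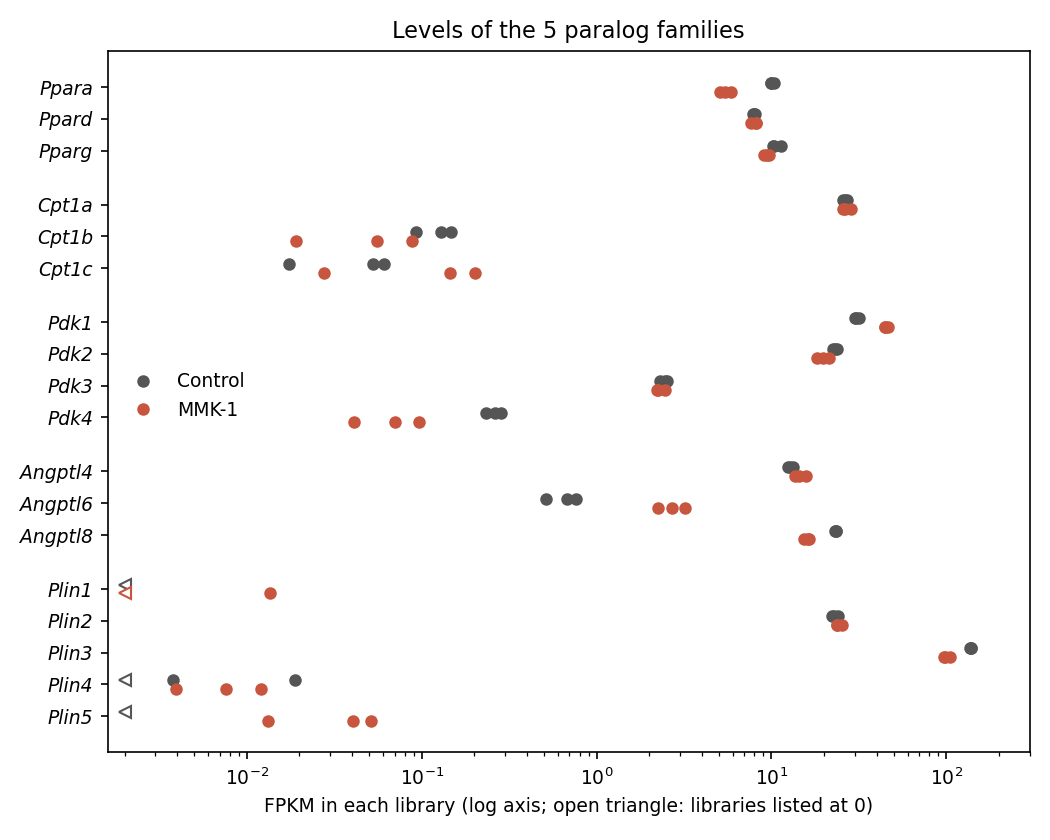
FPKM of the members and their paralogs in each library (log x axis; rows are genes, dark points Control and red points MMK-1, open triangles libraries listed at 0). Within the families Ppara, Pdk4 and Angptl8 lie lower with MMK-1, Pdk1 and Angptl6 lie higher, and Cpt1a is far above Cpt1b and Cpt1c.

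Genes known as PPAR-alpha targets outside these lists went both ways. Of 23 listed genes 22 were measured and 14 were tested, of which 8 fell, 5 rose and 1 was not called, with a median of −0.26 (−0.15 without the filter and −0.11 with a filter of 5 FPKM). Fabp2, the intestinal fatty acid binding protein and also an enterocyte gene, fell from 1428 ± 39.8 to 357 ± 23.3 FPKM (−2.0, limma adjusted p = 1.1e-08). Vnn1, a pantetheinase, fell from 6.99 ± 0.0317 to 1.66 ± 0.089 FPKM (−1.59, 3.36e-08). Acot1, a cytosolic acyl-CoA thioesterase, was at 42.9 ± 1.05 and 94.1 ± 3.03 FPKM (1.12, 7.56e-08), a value that may include reads of its close copy Acot2. Me1, the malic enzyme that supplies NADPH, rose from 22.2 ± 0.85 to 48.2 ± 2.1 FPKM (1.09, 2.07e-07). Over all fixed lists together, 46 of 84 other genes tested fell and 27 rose, with a median of −0.2, where 24.7% of all genes fell and 48.5% rose. With upper-quartile scaling 48 fell and 21 rose, and with median-of-ratios scaling 54 fell and 18 rose.

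The direction for Ppara, Ehhadh and Acadm did not depend on how the libraries were scaled. In all 15 alternative settings they were called lower, with log2 fold changes from −0.91 to −0.74 for Ppara, from −0.78 to −0.62 for Ehhadh and from −0.42 to −0.25 for Acadm. The median over all genes was 0.13 on the deposited values, 0.064 with upper-quartile scaling and 0.0061 with median-of-ratios scaling, which lowered every member by a like amount. Under these scalings Cpt2 was called lower (−0.22, limma adjusted p = 0.00434, and −0.28, 0.000988), and Cpt1a was at −0.06 (0.222) and −0.12 (0.0234), called under the second. Plin2 was not called under either, at −0.0039 (0.939) and −0.067 (0.18). Of all genes, 31.2% were called lower and 41.7% higher with upper-quartile scaling, and 36.3% and 35.9% with median-of-ratios scaling.

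**Figure D4:**
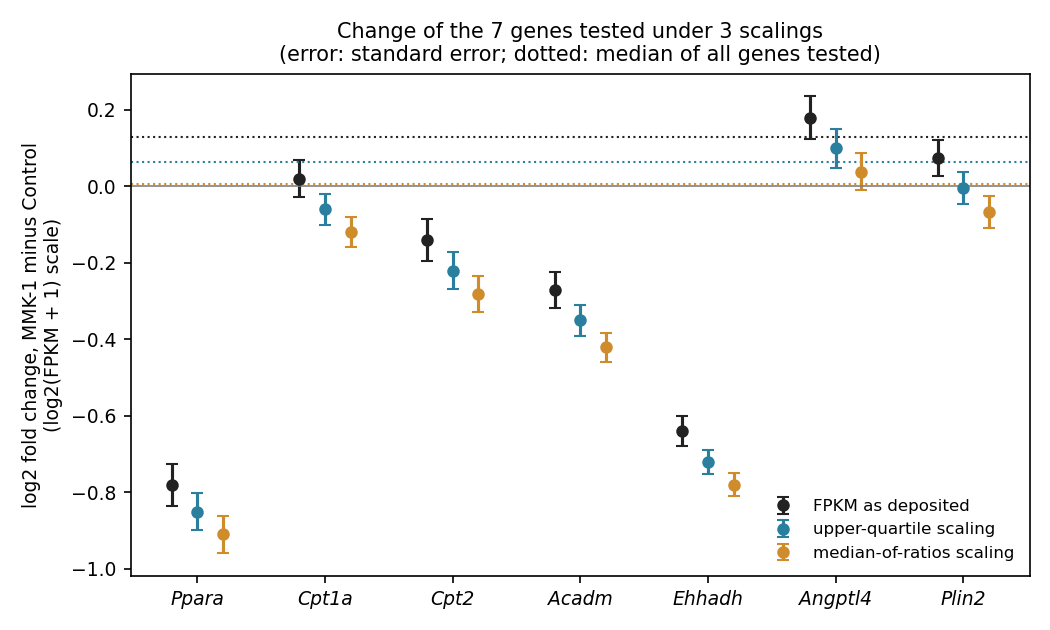
Log2 fold change of the 7 members tested (y axis, log2(FPKM + 1) scale, error bars SE of the limma fit) with the FPKM as deposited, with upper-quartile scaling and with median-of-ratios scaling. Ppara, Ehhadh and Acadm are below 0 under all 3, while Cpt1a and Plin2 change sign and Angptl4 goes from 0.18 to 0.039.

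In the order of levels, Acadm was followed by Ehhadh, Cpt2, Cpt1a, Plin2, Angptl4, Ppara and Pdk4 in control organoids, and no neighbours in this order overlapped. The order of the means was the same with MMK-1, where Ehhadh and Cpt2 overlapped. Coefficients of variation of the 7 tested members ranged from 0.611 to 3.75% in control and from 2.98 to 7.6% in MMK-1-treated organoids.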

How the data were processed

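RNA of 6 organoid libraries, 3 treated with MMK-1 and 3 with vehicle, was sequenced after preparation with the VAHTS Universal V10 kit. The submitters' processing notes name HISAT2, HTSeq, DESeq2, R 3.2.0 and mm10. The authors deposited FPKM values per gene, and the annotation and the strand used for counting are not given in the sources used here. Nothing says that the libraries came from separate sets of mice, so p-values measure the spread between these libraries, which may be partly technical. The FPKM of a gene are whole fragments times a factor of the library, and fragments were recovered from this property for all 21397 genes. Numbers of fragments cover counting error only.

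limma 3.58.1 in R 4.3.3 was run with a trend on log2(FPKM + 1), no replicate block, and a filter that kept the 10551 genes whose mean reached 1 FPKM. Calls were made at 0.05 after Benjamini-Hochberg adjustment. Single genes were tested by exact two-sided permutation tests. Scripts were tested on simulated data. Alternatives were upper-quartile and median-of-ratios scaling, TPM, voom on fragments, other filters and pseudocounts, the replicate block and leaving out each library. Coordinates are from GENCODE vM21 (GRCm38), in which no other gene overlapped exons of the 8. Members and lists were chosen with earlier results of these data known. Genes named besides members were those with the 2 largest rises and falls called in each list, not all of them given, and paralogs of members. Acaa1b, Acot2, Lpl, Pnpla2 and the pairs for ratios within libraries were chosen outside that rule, after their values were seen. Some genes of the lists are counted but not reported here by name.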

Additional observations from a re-analysis of the deposited data

How the results depend on the processing

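The count of members called higher was 1, and 0 with upper-quartile or median-of-ratios scaling and 0 to 1 when 1 library was left out. The count called lower was 3, 5 with median-of-ratios scaling and 3 to 4 without 1 library. At 2-fold 0 members were lower, against 1 without the filter and with a pseudocount of 0.1 (added after seeing the data) and 2 at a fold change of 1.5.

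Cpt1a, at 0.02, was at −0.06 with upper-quartile and −0.12 with median-of-ratios scaling (adjusted p = 0.0234, limma) and from −0.02 to 0.045 without 1 library, at −0.0004 without Control replicate 3. Cpt2, at −0.14, was called with voom on fragments (−0.14, 0.0449), a filter of 5 FPKM (−0.14, 0.0497), upper-quartile (−0.22) and median-of-ratios (−0.28) scaling, and ranged from −0.2 to −0.1 without 1 library. Angptl4, at 0.18, was not called with upper-quartile (0.1) or median-of-ratios (0.039) scaling and ranged from 0.13 to 0.22 without 1 library. Plin2, at 0.075, was at −0.0039 and −0.067 under these scalings.

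The median of the other pathway genes, −0.2, was −0.28 with upper-quartile and −0.34 with median-of-ratios scaling, −0.087 without the filter and −0.14 without the filter and with a pseudocount of 0.1. Of these genes 6 rose and 6 fell by 2-fold, 3 rose with a filter of 5 FPKM, 10 rose and 18 fell at 1.5-fold, and 4 to 6 fell without 1 library. Over all genes, 358 rose by 2-fold, against 558 in TPM, 727 with voom, 215 with a filter of 5 FPKM, 230 with median-of-ratios scaling, 676 with a pseudocount of 0.1, 1097 without the filter as well, 1502 at 1.5-fold and 336 to 434 without 1 library. The 385 that fell were 818 without the filter and with a pseudocount of 0.1, 855 at 1.5-fold and 369 to 393 without 1 library. Apart from the scalings, the filters and the thresholds themselves, the cause of these shifts was not tested.

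Libraries with the same replicate number did not deviate together (correlations 0.0253, −0.04 and 0.0279). With the replicate block no member's call changed, with Cpt2 at an adjusted p of 0.0728 and Angptl4 at 0.0157. Depth limits Pdk4, Cpt1b, Cpt1c and Lpl, for which counting error is large.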

Other observations

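Pathway membership in the table's own annotation gave similar counts. Of the 41 tested genes of the KEGG PPAR signaling pathway besides the members, 21 fell and 14 rose, with a median log2 fold change of −0.17, and 24 fell and 7 rose with median-of-ratios scaling. Of the 32 tested genes of KEGG Fatty acid degradation, 22 fell and 8 rose, with a median of −0.29.

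The genes most like a member over the 6 libraries were found by the Euclidean distance between centred log2(FPKM + 1) values, among the other 10550 genes tested. For Ppara these were Nagk (0.0286), an N-acetylglucosamine kinase, Ilvbl (0.0389) and the keratin gene Krt19 (0.0543). For Ehhadh they were Nags (0.0229), which makes N-acetylglutamate for the urea cycle, Tcn2 (0.0243), a vitamin B12 carrier, and Abr (0.0347). For Acadm they were Pgm1 (0.0277), a phosphoglucomutase, Lima1 (0.0307) and 2310030G06Rik (0.031). Cpt2 was nearest to Septin9 (0.0345), Cpt1a to Bsg (0.0248), Plin2 to Rnf187 (0.0292) and Angptl4 to Smarcb1 (0.0229). The libraries share their groups, so these distances are a description only.

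Acot12, an acetyl-CoA thioesterase of the target list that was named after its values were seen, was counted 110, 128 and 124 times in control and 2, 3 and 3 times with MMK-1, in fragments. It lay below the filter and was not tested. Fabp1, the most abundant of the target genes and likewise named after its values were seen, rose from 2218 ± 50.9 to 2506 ± 159 FPKM (log2 fold change 0.17, limma adjusted p = 0.014), a call that was lost with upper-quartile scaling (0.092, 0.106).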
